A study of Homo sapiens with 12 samples.

Results

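The comparison described here set 6 RNA-seq libraries from cells that carried an induced TAF5 transgene against 6 libraries from cells without one, and together these were all 12 libraries of the series. The cells were HEK293 Flp-In, a human embryonic kidney line with a single integration site for a transgene. Without a transgene were the groups siNT, which received non-targeting siRNAs, and siTAF5, which received an siRNA against TAF5. With a transgene were the groups siTAF5+TAF5-FL (FL below) and siTAF5+TAF5-∆E8 (ΔE8 below), in which the endogenous mRNA was silenced in the same way while doxycycline switched on full-length TAF5 or TAF5 without exon 8. Each group had 3 libraries. Groups were taken from the sample labels, and a gene counted as common to both transgenes when it moved the same way in all 4 pairings of a transgene group with a group lacking one: FL with siNT, FL with siTAF5, ΔE8 with siNT and ΔE8 with siTAF5. Of 19424 genes tested, 3596 had an adjusted p under 0.05 and 1 sign in each of those 4 pairings.

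The labels set limits on the model. Doxycycline was listed for all 12 samples, from 24 h after transfection and for 48 h, but FL and ΔE8 received different doses. The doses are left out here because their notation is unclear. They do not state in which line the siNT and siTAF5 cells were grown. Transgene, cell line and doxycycline dose therefore cannot be told apart in any value below. No spike-in was named, so every level is a share of the library, and fewer cells of a kind and less RNA per cell cannot be told apart. Nothing says that the replicates were separate cultures, so the spread behind the p-values may be technical.

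TFIID is the general transcription factor that recognises core promoters and places RNA polymerase II there. It is built from TBP and the TBP-associated factors, the TAFs. TAF5 is one of its core scaffold subunits, present in pairs with TAF4, TAF6, TAF9 and TAF12, and it ends in a ring of WD40 repeats. A paralogue, TAF5L, has the corresponding place in the coactivator complex SAGA.

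Counted in units of 1e+06 estimated counts, the libraries held 42.6 to 62.5 with FL, 41.8 to 61.2 with ΔE8, 54.8 to 61.8 with siNT and 46.4 to 55.9 with siTAF5. Levels are given as CPM, a gene's count relative to the size of its library, which was scaled by the trimmed mean of M values (TMM). Differences are log2 values from edgeR's quasi-likelihood model of all 12 libraries, ± SE. The averaged difference is the mean of FL and ΔE8 minus the mean of siNT and siTAF5. A gene is said to have risen or fallen when its p, adjusted by Benjamini-Hochberg over all 19424 genes, was under 0.05. The labelled cell type was checked against its markers: of 11 genes listed for lines of embryonic kidney origin all 11 were measurable, among them VIM and KRT8, while the blood cell markers PTPRC and CD3E had no more than 3 counts in any library. The blood list was not wholly silent: CD14, HBA1 and CD34 had enough counts to be tested, and the list summed to 6.62 to 11.2 CPM over the libraries. Measurable means only that a gene had enough counts to be tested, and 8 of 11 epithelial keratin and junction genes had too. The check therefore does not identify the line.

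TAF5 itself (ENSG00000148835, chromosome 10, 103367966 to 103389065 in hg38) was the first check of the labels. Its levels were 39.2, 40.5 and 40.2 CPM with siNT, 6.13, 7.35 and 6.68 with siTAF5, 103, 106 and 107 with FL and 87.6, 87.5 and 88.9 with ΔE8. All 6 libraries with a transgene lay above all 6 without, and the siTAF5 libraries were lowest. TAF5 was 2.63-fold higher with FL and 2.2-fold higher with ΔE8 than with siNT. The series text describes the induced proteins as expressed at endogenous levels. FL stood above ΔE8 by 0.26 ± 0.031 on the log2 scale (adjusted p = 2.12e-06). Gene counts do not separate transgene from endogenous transcripts, and protein was not measured here.

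The 2 transgenes differ by exon 8 of TAF5, which has 165 bases at chr10:103385326-103385490 on the plus strand in GENCODE release 29 (GRCh38), all of them coding. That is 55 codons' worth with a remainder of 0, so its loss leaves the reading frame intact. It is printed because the shared changes below were found both with and without these letters in the transgene. Capitals mark the exon, and lower case the 18 coding bases of the neighbouring exons on either side.
TAF5 exon 8: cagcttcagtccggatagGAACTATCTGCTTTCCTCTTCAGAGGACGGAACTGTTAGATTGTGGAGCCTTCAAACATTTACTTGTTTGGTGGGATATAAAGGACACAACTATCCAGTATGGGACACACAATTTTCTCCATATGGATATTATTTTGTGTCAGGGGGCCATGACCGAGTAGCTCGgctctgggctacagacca

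Averaged over both transgenes, 5687 genes (29.3% of those tested) were higher and 5735 (29.5%) lower than without a transgene, 11422 (58.8%) in all. That average alone does not show a shared effect. POLR2A, the largest subunit of RNA polymerase II, was chosen after its values were seen to show this: its averaged difference was 0.47 ± 0.016 (adjusted p = 3.19e-14), yet it was 0.56 for FL against siNT, -0.49 for FL against siTAF5, 1.44 for ΔE8 against siNT and 0.39 for ΔE8 against siTAF5. The separate pairings gave 5397 higher (27.8%) and 5211 lower (26.8%) for FL against siNT, and 4745 higher (24.4%) and 4732 lower (24.4%) for FL against siTAF5. For ΔE8 the counts were 5987 higher (30.8%) and 6104 lower (31.4%) against siNT, and 3891 higher (20%) and 3993 lower (20.6%) against siTAF5. These pairings share libraries, so they are not independent of each other. With libraries scaled by their totals alone, FL against siTAF5 gave 3748 higher and 5788 lower, a more uneven split.

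Under the stricter rule, 1864 genes (9.6% of those tested) rose in all 4 pairings and 1732 (8.92%) fell in all 4. Whatever the p, 4685 genes (24.1%) had a positive sign in all 4 pairings and 4902 (25.2%) a negative one, 9587 (49.4%) in all. Where the averaged difference also passed the test, these numbers were 3866 (19.9%) and 4019 (20.7%). Most shared differences were small. The median over the genes that rose of the smallest of the 4 differences was 0.17 (log2), and over those that fell 0.25. At least 1.5-fold in every pairing were 84 of the genes that rose and 183 of those that fell, and at least 2-fold 42 and 31. The libraries with and without a transgene did not overlap for 1783 of the genes that rose and 1630 of those that fell, against 2122 higher (10.9%) and 2000 lower (10.3%) over all genes tested. The counts over all genes include the former. Genes that rose or fell were chosen by differences between these same libraries, so their lack of overlap follows largely from the rule and is no support. Long noncoding RNAs made up 42 of the genes that rose and 95 of those that fell, out of 3306 tested, and protein-coding genes 1806 and 1616, out of 14637 tested.

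Sharing a direction did not make the transgenes equal. Between FL and ΔE8, 517 of the genes that rose (27.7%) and 493 of those that fell (28.5%) differed at an adjusted p under 0.05, where 37% of all genes tested did. The genes that rose had a median siNT level of 52.2 CPM and a median annotated exon length of 3609 bases, those that fell 23.9 CPM and 4165 bases, and all protein-coding genes tested 28.3 CPM and 3681 bases.

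Among genes other than TAF5 that had a symbol, were of at least moderate level (average log2 CPM of 2 or more) and whose 6 and 6 libraries did not overlap, the 14 that rose furthest and the 14 that fell furthest in their weakest pairing are described next. They were picked by size from these data, so their values describe them and are no independent support.

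DNAH17 encodes a dynein heavy chain of the outer arms of the sperm tail axoneme (ENSG00000187775, chromosome 17, 78423697 to 78577396). Its levels were 6.11, 5.82 and 5.15 CPM with siNT, 3.6, 3.82 and 4.26 with siTAF5, 21.4, 23.7 and 27.2 with FL and 18.2, 19.1 and 20.3 with ΔE8. Every library with a transgene exceeded every one without. The averaged difference was 2.19 ± 0.062, or 4.55-fold (adjusted p = 2.67e-15), and the knockdown moved the gene the other way, with siTAF5 minus siNT at -0.54 (adjusted p = 2.94e-04). The antisense gene DNAH17-AS1, which overlaps it, also rose in all 4 pairings (2.17 ± 0.20), from a mean of 0.297 ± 0.0972 CPM (SD, n = 3) with siNT. The kit kept strand, but whether the authors' counting used strand is not stated, so reads of the 2 genes may not be separated.

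HSPB8, a small heat shock protein that works with BAG3 in clearing misfolded proteins, had levels of 3.33, 2.89 and 2.9 CPM with siNT, 2.81, 2.22 and 2.53 with siTAF5, 8.22, 9.06 and 10.4 with FL and 7.38, 8.73 and 7.98 with ΔE8. PPP1R15A, also called GADD34, is the stress-induced subunit that directs protein phosphatase 1 to the initiation factor eIF2α. It stood at 41.1, 40.2 and 40.1 CPM with siNT, 46.7, 46.2 and 45 with siTAF5, 99.4, 94.6 and 104 with FL and 103, 104 and 105 with ΔE8. For both genes no library with a transgene reached down to one without. HSPB8 was 3.11-fold higher on average (1.64 ± 0.074, adjusted p = 8.00e-13) and PPP1R15A 2.35-fold (1.24 ± 0.023, adjusted p = 1.10e-18). PPP1R15A was also higher with siTAF5 than with siNT, by 0.18 (adjusted p = 1.42e-04), a much smaller step than that to either transgene group.

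ETV5, an ETS-family transcription factor induced by receptor tyrosine kinase signalling, measured 25.4, 26.3 and 24.8 CPM with siNT, 25.6, 27.6 and 28.4 with siTAF5, 53, 53.6 and 59.5 with FL and 47.9, 47.4 and 52 with ΔE8. SLC3A2, the heavy chain of several amino acid exchangers at the plasma membrane, measured 119, 122 and 122 CPM with siNT, 127, 124 and 132 with siTAF5, 185, 175 and 190.5 with FL and 189, 192 and 202 with ΔE8. In both genes the siNT and siTAF5 libraries ran close to each other and well under the rest. The averaged difference was 0.98 ± 0.035 for ETV5 (adjusted p = 3.43e-14) and 0.60 ± 0.023 for SLC3A2 (adjusted p = 7.74e-14).

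The other 9 were LINC01963, a long noncoding RNA (1.01), AP3B2 (0.95) and AP4S1 (0.69), both subunits of adaptor complexes of vesicle transport, VGF (0.78), a neuropeptide precursor, and TNFRSF12A (0.68), the receptor of TWEAK. The list was closed by SF3B4 (0.60), a component of the U2 snRNP, MAP1A (0.56), a microtubule-associated protein, DNTTIP2 (0.56), a nucleolar protein, and CIDECP1 (0.53), a pseudogene whose reads may be shared with its parent gene. AP3B2 had the most uneven pairings of these 9, with 1.28 for FL against siNT but 0.58 against siTAF5, and siTAF5 minus siNT was 0.70 (adjusted p = 1.62e-06). MAP1A and CIDECP1 were the most even. MAP1A went from 12 to 13.7 CPM without a transgene to 18.2 to 20.4 CPM with one. Of the 14 genes, 7 were also higher with siTAF5 than with siNT, 1 (DNAH17) was lower and 6 did not pass that test, where 49.7% of all genes tested passed it in either direction. FL and ΔE8 differed in 3, DNAH17, ETV5 and LINC01963.

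Among the 14 that fell, ICAM5, a neuronal adhesion molecule of the immunoglobulin family (ENSG00000105376, chromosome 19, 10289952 to 10296778), had levels of 40, 36.4 and 34.4 CPM with siNT, 29.3, 29.4 and 25.8 with siTAF5, 12.8, 11.6 and 10.7 with FL and 12.7, 12.9 and 12 with ΔE8. STC1, a secreted glycoprotein of calcium and phosphate balance, had 12.9, 12 and 11.4 CPM with siNT, 9.2, 9.13 and 8.47 with siTAF5, 4.59, 3.32 and 2.6 with FL and 4.41, 4.33 and 3.68 with ΔE8. Both were lower in every library with a transgene than in any without, and in both the siTAF5 libraries lay between siNT and the transgene groups. The averaged difference was -1.41 ± 0.048 for ICAM5, 2.65-fold lower (adjusted p = 2.59e-14), and -1.42 ± 0.084 for STC1, 2.68-fold lower (adjusted p = 2.78e-11).

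MMP2, a secreted protease of collagen IV and gelatin, behaved most evenly of the 14. It was measured at 15.7, 14 and 14 CPM with siNT, 15.5, 15.4 and 13.4 with siTAF5, 7.46, 7.47 and 6.8 with FL and 7.63, 6.82 and 6.79 with ΔE8, so siNT and siTAF5 overlapped, as did FL and ΔE8. Its 4 pairings ran only from -1.05 to -1.0, and the averaged difference was -1.03 ± 0.051 (adjusted p = 2.40e-12). NOG, the secreted antagonist noggin of bone morphogenetic proteins, was at 7.16, 7.37 and 7.15 CPM with siNT, 6.22, 6.04 and 5.39 with siTAF5, 3.19, 2.96 and 2.04 with FL and 2.2, 2.69 and 2.63 with ΔE8, an averaged difference of -1.31 ± 0.083 (adjusted p = 6.37e-11).

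Several of the remaining genes act outside the cell. COL21A1, a collagen of the fibril-associated kind, was at 15, 16.1 and 15.8 CPM with siNT, 11.7, 12.3 and 10.8 with siTAF5, 6.64, 6.1 and 6.17 with FL and 4.83, 4.67 and 3.66 with ΔE8. The 4 groups did not overlap, and ΔE8 lay below FL (FL minus ΔE8 0.51 ± 0.090, adjusted p = 1.40e-04). ADAMTS2, which trims procollagens, averaged -1.08, ADAMTS7, a protease of matrix proteins, -1.06, and SLIT3, a secreted ligand of ROBO receptors, -1.04. VSTM2B (-1.33) and TMEM255A (-0.90) are membrane proteins. Of the intracellular members, ARC, a neuronal immediate early gene, averaged -1.07, PCK1, an enzyme of gluconeogenesis, -1.28, ACSM3, a mitochondrial acyl-CoA synthetase, -1.03, and SNCAIP, a partner of α-synuclein, -1.12. TMEM255A had the smallest averaged difference of the 14, with 16.2 to 20.4 CPM with a transgene against 32.2 to 36.7 without. Of these 14 genes 9 were also lower with siTAF5 than with siNT and 5 did not pass that test. FL and ΔE8 differed in 4, ARC, COL21A1, PCK1 and VSTM2B.

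**Figure D1:**
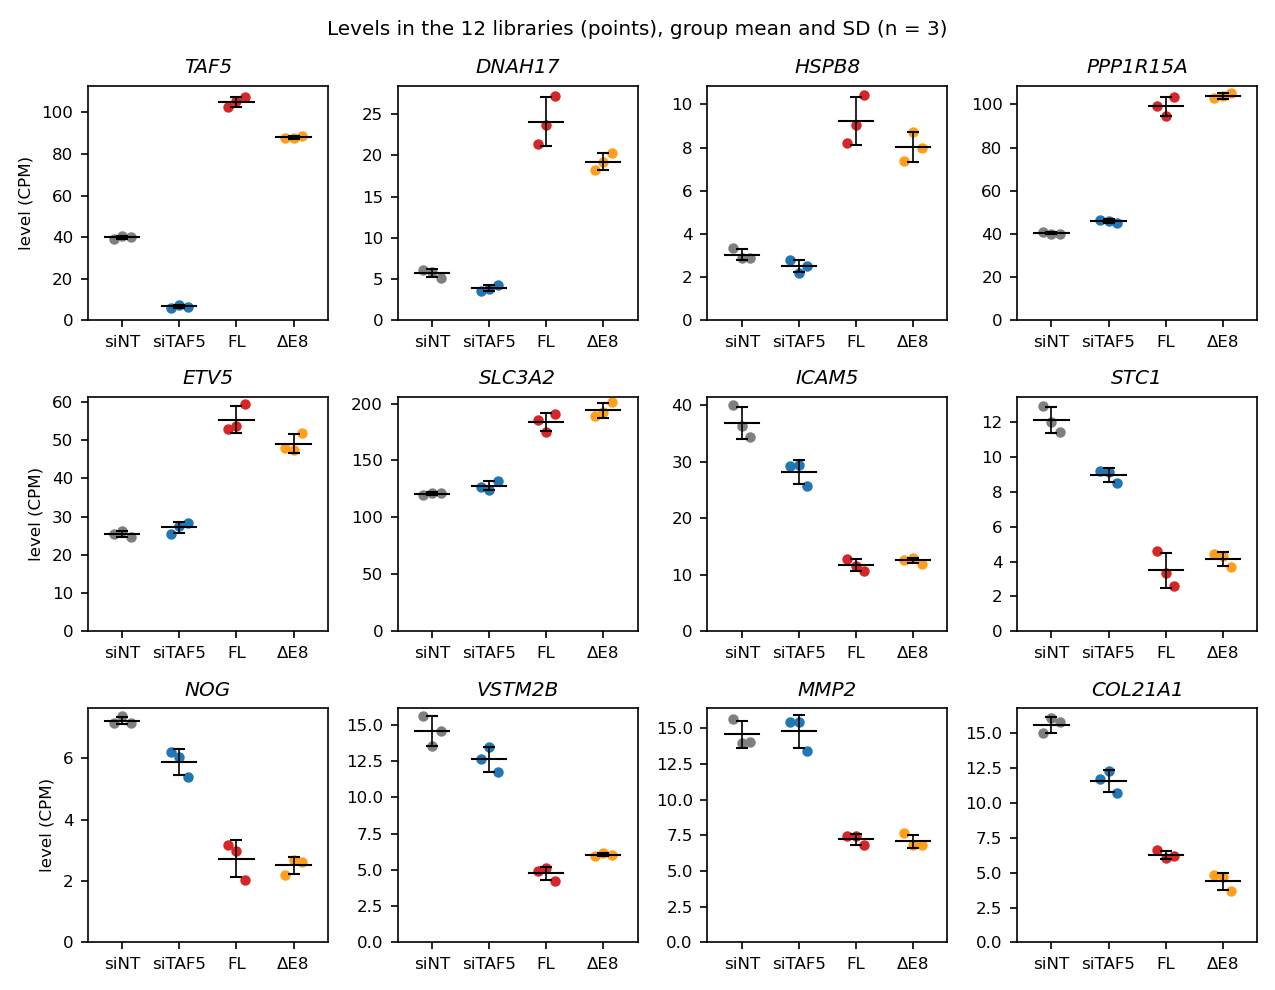
Level in CPM (vertical axis, from 0) of TAF5 and 11 of the named genes in the 12 libraries, shown as points, with the group mean and SD over 3 libraries. In each panel the FL and ΔE8 points lie wholly above (TAF5 to SLC3A2) or wholly below (ICAM5 to COL21A1) those of siNT and siTAF5.

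**Figure D2:**
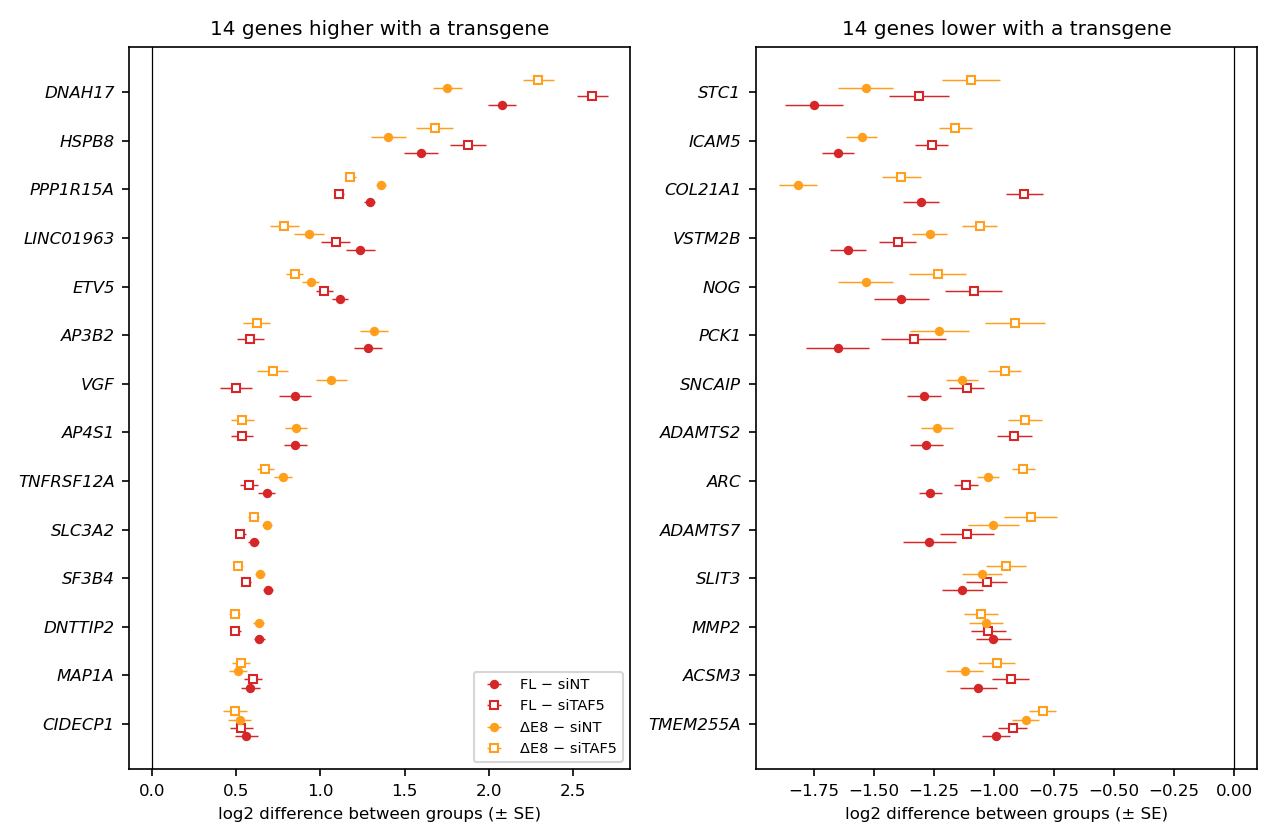
Log2 differences ± SE (horizontal axis) of the 14 genes that rose and the 14 that fell, each in its 4 pairings of a transgene group with siNT (filled circles) or siTAF5 (open squares). DNAH17 lies between 1.75 and 2.62, and the 4 values of MMP2 almost coincide near -1.03.

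TFIID binds core promoters, so the windows from 250 bases before to 50 bases after the annotated start were taken from RefSeq (GRCh38.p14). Windows were matched by symbol, and only the first window listed for a symbol was kept. Windows were found for 1548 of the 1864 genes that rose and 1268 of the 1732 that fell. Of 12580 tested genes with a window, 6.18% held TATAAA on either strand, 36.4% held CCAAT and 68.8% held GGGCGG. Among the genes that rose these shares were 5.62%, 40.2% and 67.5%, and among those that fell 5.52%, 31.1% and 76%. The median GC content was 63.3% for genes that rose, 69.3% for genes that fell and 65.3% over all genes tested. TATAAA was in a similar share of both sets and of all tested genes, while windows of genes that fell were richer in GC and held CCAAT less often and GGGCGG more often. No test was run on these shares.

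The windows of 2 genes that rose and 2 that fell are shown, so that the letters behind those shares can be seen. They run from 100 bases before to 30 bases after the start. As examples they do not reflect the shares: both that fell hold CCAAT, against 31.1% of all that fell. Capitals mark a match to 1 of the 3 motifs on either strand.
PPP1R15A (chr19:48872321-48872450, plus strand): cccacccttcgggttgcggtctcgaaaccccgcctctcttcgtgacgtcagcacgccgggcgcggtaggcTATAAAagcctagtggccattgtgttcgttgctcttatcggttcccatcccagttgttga
HSPB8 (chr12:119178831-119178960, plus strand): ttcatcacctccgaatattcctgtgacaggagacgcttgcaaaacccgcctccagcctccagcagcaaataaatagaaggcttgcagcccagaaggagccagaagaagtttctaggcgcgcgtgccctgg
ICAM5 (chr19:10289852-10289981, plus strand): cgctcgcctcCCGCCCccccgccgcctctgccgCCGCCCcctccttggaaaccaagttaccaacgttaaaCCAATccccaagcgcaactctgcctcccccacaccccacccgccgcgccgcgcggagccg
SLIT3 (chr5:169301110-169301239, minus strand): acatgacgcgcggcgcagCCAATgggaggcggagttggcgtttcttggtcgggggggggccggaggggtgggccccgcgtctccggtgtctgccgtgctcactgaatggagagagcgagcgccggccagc
PPP1R15A had TATAAA from position -30, and HSPB8 had none of the 3 motifs in the stretch shown. ICAM5 had CCAAT from position -30 and GGGCGG on the opposite strand from -90 and -67, and SLIT3 had CCAAT from -82. Other named genes differed in the same stretch. VSTM2B, which fell, had GGGCGG on the opposite strand from -82 and -14 and no CCAAT. SNCAIP, which also fell, had TATAAA on the opposite strand from position 4. AP3B2, which rose, had GGGCGG on the opposite strand from -82, and AP4S1, which rose, had no match. Of the 14 genes that rose 9 had a window, of which 2 held TATAAA, 2 CCAAT and 7 GGGCGG. Of the 14 that fell 8 had one, with 1, 4 and 6 in the same order. A match is a description of the letters and not a factor's site.

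The complexes that TAF5 belongs to or works with were examined next. Of 16 other TFIID subunits, 11 rose and 2 fell on average, where 29.3% and 29.5% of all genes tested did. Their median was 0.09 against 0.00 over all genes tested. Only 4 (25%) rose in all 4 pairings and none fell, where 9.6% of all genes tested rose and 8.92% fell. Those 4 were TAF3 (0.38 ± 0.025), which binds the histone mark H3K4me3, TAF13 (0.32 ± 0.034), TAF2 (0.22 ± 0.024), which contacts the initiator element, and TAF9 (0.15 ± 0.025). The 2 that fell on average were TAF4B and TAF8. TAF3 was the clearest, at 31.6, 31.9 and 31.3 CPM with siNT, 39, 38.9 and 39.4 with siTAF5, 45.3, 40.9 and 43 with FL and 48.6, 48.4 and 49.1 with ΔE8. Without FL replicate 3 the calls of TAF9 and TAF13 in FL against siTAF5 were lost (adjusted p = 0.111 and 0.0816), leaving 2 of 16, and that of TAF13 also without siTAF5 replicate 1 (adjusted p = 0.0503). TAF9 overlaps AK6, so its reads may be shared.

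Several TFIID subunits went in opposite directions in different pairings. TAF12, the histone-fold partner of TAF4, was 1.0 for ΔE8 against siNT and -0.62 for FL against siTAF5. TAF4 was 0.37 and -0.24 in the same order, and TAF6 0.30 and -0.16. For TAF8 the signs were the other way round, -0.41 and 0.24. TAF4B, the paralogue of TAF4, was the only subunit with a negative sign in all 4 pairings, at -0.20 ± 0.027 on average (adjusted p = 2.29e-06). TBP averaged 0.06 ± 0.027 (adjusted p = 0.0522), TAF1 0.02 ± 0.023 (0.503) and TAF10 0.07 ± 0.036 (0.101).

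**Figure D3:**
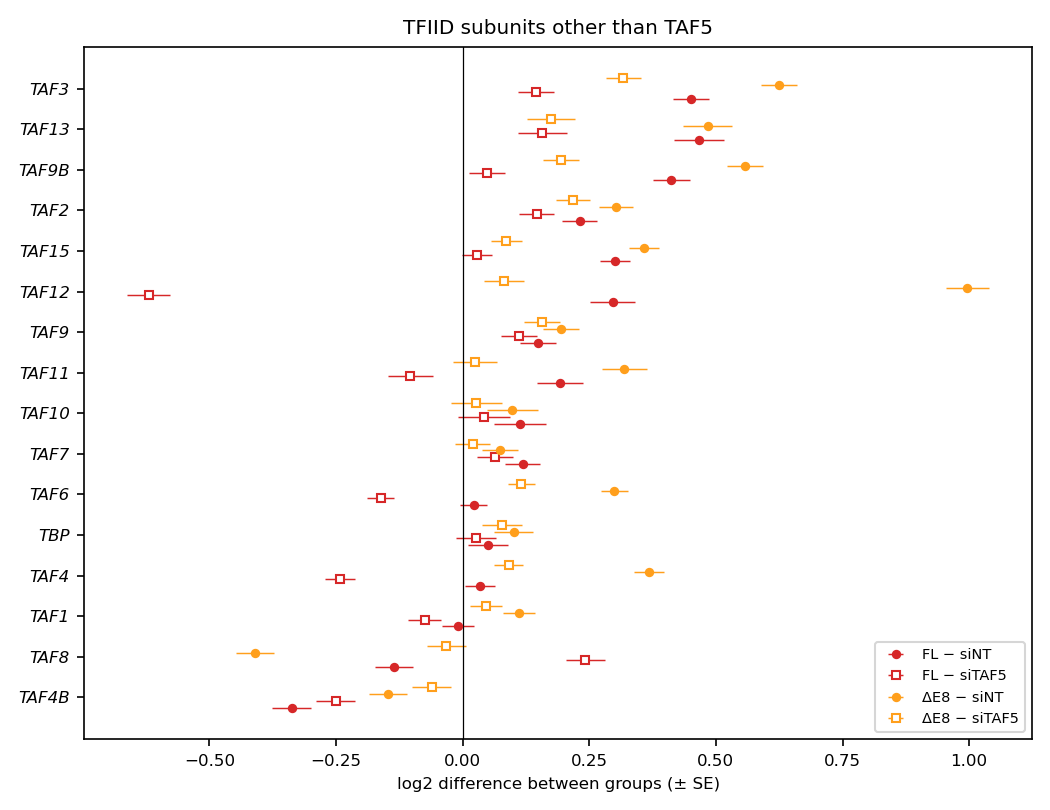
Log2 differences ± SE of the 16 TFIID subunits other than TAF5 in the 4 pairings, ordered by their averaged difference. Of the 9 subunits with 4 positive values TAF3, TAF13, TAF2 and TAF9 passed the test in each pairing, while TAF12 spreads from -0.62 to 1.0.

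SAGA, the histone acetyltransferase coactivator that shares some TAFs with TFIID, had 11 of 16 subunits higher and 2 lower on average (median 0.09). Only KAT2A (0.23 ± 0.020), its acetyltransferase, and TAF5L (0.19 ± 0.019) rose in all 4 pairings. That is 12.5%, close to the 9.6% over all genes tested. The 2 that were lower on average, ATXN7L3 (-0.07) and SUPT3H (-0.10), are named after their values were seen. Of 29 RNA polymerase II subunits and general factors, 18 rose and 2 fell on average (median 0.11). Against 9.6% of all genes tested, 9 (31%) rose in all 4 pairings. Among those were GTF2H1 (0.36 ± 0.024), a subunit of TFIIH, GTF2B (0.30 ± 0.031), which bridges TBP and the polymerase, and the polymerase subunits POLR2C (0.27 ± 0.021) and POLR2K (0.26 ± 0.027). GTF2E2, a subunit of TFIIE, fell in all 4 (-0.21) and ERCC2, a helicase of TFIIH, on average (-0.19), both named after their values were seen. With libraries scaled by totals alone the count of 9 became 5.

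Lists of genes of known function were then read against the background of 9.6% higher and 8.92% lower in all 4 pairings. That background was not matched to the lists for level or gene type. Its median siNT level was 14.3 CPM, against 28.3 CPM for protein-coding genes, which make up most lists. Of 14637 protein-coding genes tested, 1806 rose and 1616 fell in all 4 pairings. The lists were compiled with earlier results of these data known, so their counts are descriptions. Splicing factors had the largest share of genes that rose: 22 of 35 (62.9%), with none lower and a median difference of 0.19. HNRNPM, an RNA-binding protein of alternative splicing, stood at 333, 349 and 336 CPM with siNT, 397, 385 and 392 with siTAF5, 587, 573 and 605 with FL and 523, 512 and 525 with ΔE8. It rose by a step with the knockdown and by a further one with either transgene, 0.60 ± 0.018 on average (adjusted p = 3.26e-15). HNRNPU (0.43 ± 0.014), SRSF6 (0.58 ± 0.029), an SR protein, and SF3A1 (0.31 ± 0.015), a U2 snRNP subunit, had the same sign in every pairing. On average 30 rose, and the 3 that fell, named after their values were seen, were SNRNP70 (-0.13), SNRPA (-0.13) and SRSF4 (-0.10).

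Of 30 ribosome biogenesis factors 13 (43.3%) were higher in all 4 pairings and none lower, with a median of 0.14, and 25 were higher and 2 lower on average. UTP20 (0.44 ± 0.027), of the small-subunit processome, NOP2 (0.40 ± 0.018), an rRNA methyltransferase, RRP12 (0.36 ± 0.021) and RRS1 (0.36 ± 0.023) were the members with the smallest p. NOP2 overlaps an unnamed gene on the same strand that also rose in all 4 pairings (0.4), so its reads may be shared. RRS1 differed between transgenes, at 57.8, 57.6 and 59.8 CPM with FL and 48.3, 47.7 and 47 with ΔE8, against 39.8 to 42.4 without a transgene. The 2 lower on average were GNL3 (-0.18) and FBL (-0.12), named after their values were seen.

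Ribosomal protein genes did not share that course. Of 61 cytosolic ribosomal protein genes 52 fell and none rose on average (median -0.10), but only RPL3 (-0.21 ± 0.019) and RPL13 (-0.19 ± 0.030) fell in all 4 pairings (3.28%). Summed, the 61 genes held 70910 to 74190 CPM with siNT and 61290 to 62970 with siTAF5. With FL they held 64960 to 67510 CPM, and with ΔE8 58030 to 59830. The sum with FL thus lay below siNT but above siTAF5, so the lower average is not a shared direction. As for RPL3 and RPL13, their calls depended on single libraries. Without siTAF5 replicate 1 neither did, the adjusted p for FL against siTAF5 being 0.0514 for RPL3 and 0.0625 for RPL13, and RPL13 also lost the call without FL replicate 3 (adjusted p = 0.11). Of 17 host genes of small nucleolar RNAs, 11 fell and 3 rose on average (median -0.17), and in all 4 pairings GAS5 fell (-0.27 ± 0.021) while SNHG17 (0.56 ± 0.034), SNHG20 (0.36 ± 0.040) and SNHG15 (0.24 ± 0.026) rose. Their summed level was 1524 to 1577 CPM with siNT and 1063 to 1068 with siTAF5. It was 1274 to 1314 CPM with FL and 998.9 to 1030 with ΔE8, so FL again lay between the groups without a transgene.

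**Figure D4:**
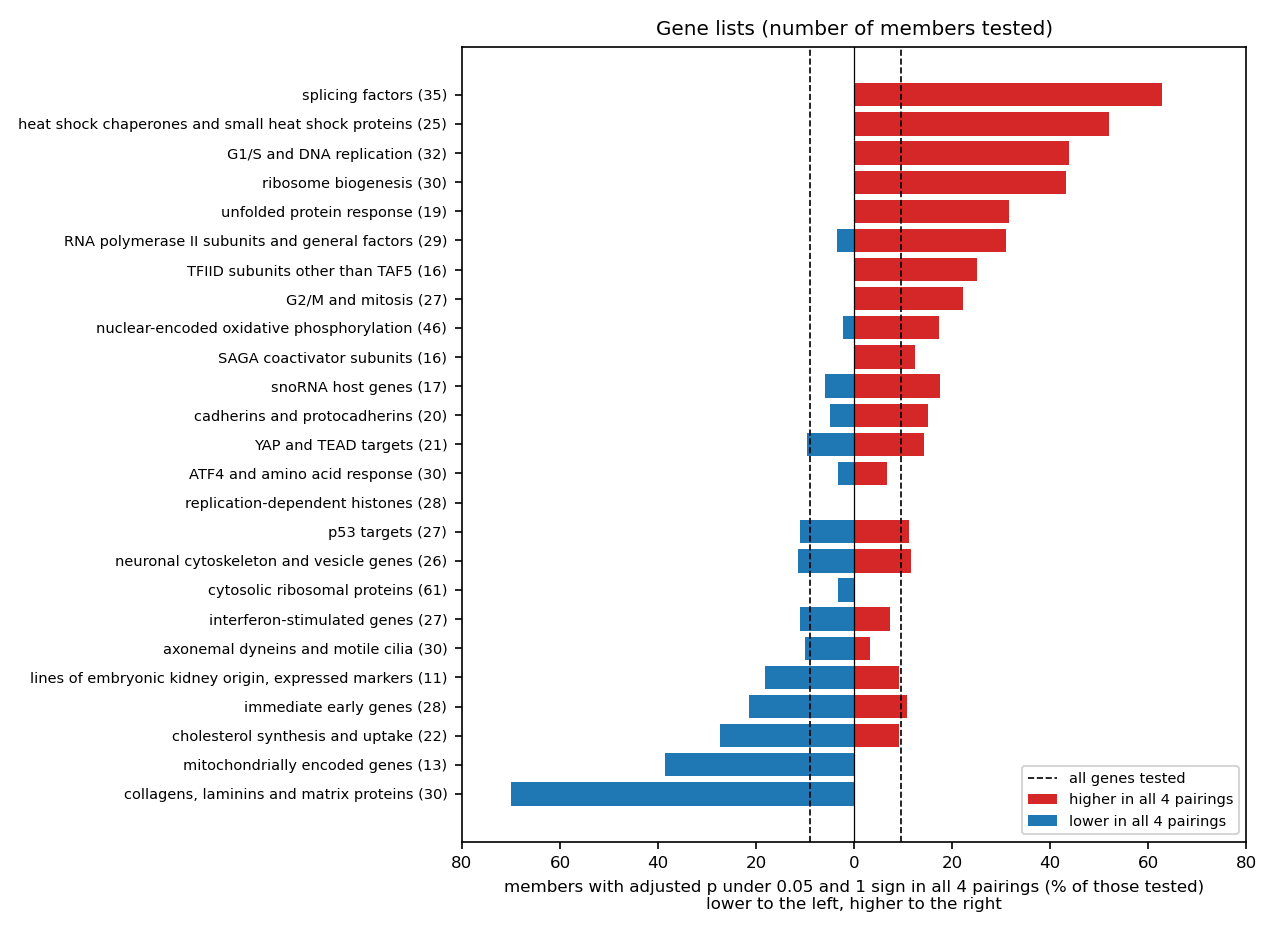
Share of the tested members of each gene list with at least 10 of them that rose (right) or fell (left) in all 4 pairings, in percent, with the share over all genes tested as dashed lines (9.6% and 8.92%). Splicing factors reach 62.9% to the right, and matrix proteins 70% to the left.

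Chaperones formed a second group of higher genes. Of 25 heat shock chaperones and related factors 13 (52%) rose in all 4 pairings and none fell (median 0.21). Beside HSPB8, the members with the smallest p were the HSP70 partner DNAJA1, at 146, 148 and 156 CPM with siNT, 187, 183 and 195 with siTAF5, 249, 246 and 267 with FL and 257, 246 and 262 with ΔE8, HSPA8, the constitutive HSP70 (0.50 ± 0.024), and HSPH1, a nucleotide exchange factor of HSP70 (0.51 ± 0.025). DNAJA1 and HSPA8 also rose with the knockdown alone (0.33 and 0.26, adjusted p = 1.73e-07 and 1.60e-06), HSPH1 did not (0.04, adjusted p = 0.449). The classical heat-inducible genes HSPA1A (-0.04, adjusted p = 0.678) and HSPA1B (-0.01, adjusted p = 0.602), named after their values were seen, were not called on average, but their pairings differed: HSPA1B was -0.54 for FL against siTAF5 and 0.52 for ΔE8 against siNT, and HSPA1A -0.79 and 0.70. As near-identical copies they may exchange reads. On average 18 rose, and HSPB1 (-0.22) and HSPA4L (-0.09), named likewise, fell.

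In the endoplasmic reticulum, 6 of 19 genes of the unfolded protein response (31.6%) rose in all 4 pairings and none fell, with 14 higher and 1 lower on average (median 0.19). They included DNAJB11 (0.37 ± 0.027), a co-chaperone of BiP, MANF (0.35 ± 0.023), HYOU1 (0.20 ± 0.017), a large HSP70 relative of the lumen, and the transcription factor XBP1 (0.19 ± 0.020). HERPUD1 was the 1 lower on average (-0.13, named after its value was seen). Targets of ATF4, which share the eIF2α pathway with PPP1R15A, did not rise as a group. Of 30, 7 rose and 17 fell on average (median -0.09), and in all 4 pairings only SLC3A2 and WARS1 (0.24 ± 0.019), the tryptophanyl-tRNA synthetase, rose, while VLDLR (-0.48 ± 0.028), a lipoprotein receptor, fell. The count of 1 that fell became 2 without FL replicate 1 or 3 or siTAF5 replicate 2, and 4 with upper-quartile factors.

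DNA replication genes were also higher. Of 32 genes of the G1/S transition and replication, 14 (43.8%) rose in all 4 pairings and none fell (median 0.17), with 27 higher and 1 lower, CDT1 (-0.09, named after its value was seen), on average. CDC6, which loads the replicative helicase, measured 100, 97.3 and 98.4 CPM with siNT, 119.8, 116 and 118 with siTAF5, 141, 143 and 153 with FL and 159, 151 and 153 with ΔE8, an averaged difference of 0.48 ± 0.021 (adjusted p = 7.10e-13). The groups formed 3 separate levels, siNT lowest, then siTAF5, then both transgene groups. POLA1 (0.36 ± 0.019), the catalytic subunit of DNA polymerase α, MCM10 (0.35 ± 0.020) and MCM7 (0.24 ± 0.014) differed from CDC6 in that the knockdown had lowered them (siTAF5 minus siNT -0.18, -0.08 and -0.11, adjusted p = 1.47e-05, 0.016 and 1.23e-04).

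Of 27 genes of G2 and mitosis, 6 (22.2%) rose in all 4 pairings and none fell, while 19 rose and 5 fell on average (median 0.11). CDC20, an activator of the anaphase-promoting complex, was at 169.9 to 181 CPM without and 214 to 224 CPM with a transgene (0.33 ± 0.018), and the knockdown alone did not move it measurably (-0.02, adjusted p = 0.468). KIF11 (0.32 ± 0.021), a spindle motor, PLK1 (0.22 ± 0.017), a mitotic kinase, and TPX2 (0.22 ± 0.017) also rose in all 4. The 5 that fell on average, between -0.24 and -0.07 and named after their values were seen, were MAD2L1, CENPA, AURKB, PTTG1 and TOP2A. Replication-dependent histone genes, whose mRNAs lack a poly(A) tail and are caught only in part by poly(A) selection, gave 13 of 28 lower and 3 higher on average (median -0.22) and none in all 4 pairings. The 3 higher were H4C3 (0.69), H2AC20 (0.62) and H4C8 (0.49), named after their values were seen. The summed level of the list was 284 to 298 CPM with siNT, 540.5 to 546 with siTAF5, 158 to 165 with FL and 398 to 409 with ΔE8. Against siNT the sum was thus lower with FL but higher with ΔE8, so the lower average is not a shared direction.

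Of the lists with at least 10 tested genes, matrix genes had the largest share that fell. Of 30 genes for collagens, laminins and other matrix proteins, 27 fell and none rose on average, with a median of -0.51 against 0.00 over all genes tested, and 21 (70%) fell in all 4 pairings. The 3 not called on average, COL6A3 (-0.75, adjusted p = 0.165), COL12A1 (0.08, adjusted p = 0.154) and FBN1 (0.03, adjusted p = 0.415), are named after their values were seen. NID1, nidogen 1, which links laminin and collagen IV networks in basement membranes, had 368, 361 and 359.5 CPM with siNT, 320.4, 316 and 308 with siTAF5, 248, 252 and 236 with FL and 234, 241 and 221 with ΔE8. Its relative NID2 had 69.2, 67.9 and 66.8 CPM with siNT, 56.5, 55.8 and 55.2 with siTAF5, 46, 46.4 and 42.1 with FL and 38.5, 37.5 and 34.6 with ΔE8. Both declined from siNT to siTAF5 and further to the transgene groups, and the libraries with and without a transgene did not overlap. Averaged, NID1 fell by 0.50 (SE 0.021, adjusted p = 3.83e-13) and NID2 by 0.60 (SE 0.028, adjusted p = 1.12e-12).

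HSPG2, the basement membrane proteoglycan perlecan, had 81.4, 81.8 and 78.6 CPM with siNT, 77.6, 78.2 and 77.8 with siTAF5, 45.5, 50.3 and 43.9 with FL and 54, 59.4 and 53.8 with ΔE8. Here the knockdown made no measurable difference (-0.05, adjusted p = 0.33) and FL was lower than ΔE8 (-0.26 ± 0.044, adjusted p = 8.50e-05). COL4A6, a chain of collagen IV, was at 43.8 to 47.6 CPM without and 30.5 to 32.9 CPM with a transgene (-0.52 ± 0.024). The summed level of the list was 3153 to 3275 CPM with siNT, 3037 to 3105 with siTAF5, 2327 to 2453 with FL and 2352 to 2521 with ΔE8.

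Markers of fibroblasts, cells rich in matrix, were examined beside this result. Of 8 on the list 2 had enough counts to be tested, COL1A1 (-0.51) and COL3A1 (-0.95), both also on the matrix list. Their defining companions were near 0, with at most 13 counts for LUM and for PDGFRB, 2 for DCN and 1 for COL1A2 in any library. The summed fibroblast list stood at 17.1 to 17.6 CPM with siNT, 10.6 to 11.3 with siTAF5, 8.82 to 10.3 with FL and 8.34 to 8.91 with ΔE8. COL3A1 fell in all 4 pairings, but without siTAF5 replicate 2 its adjusted p for FL against siTAF5 was 0.0546.

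**Figure D5:**
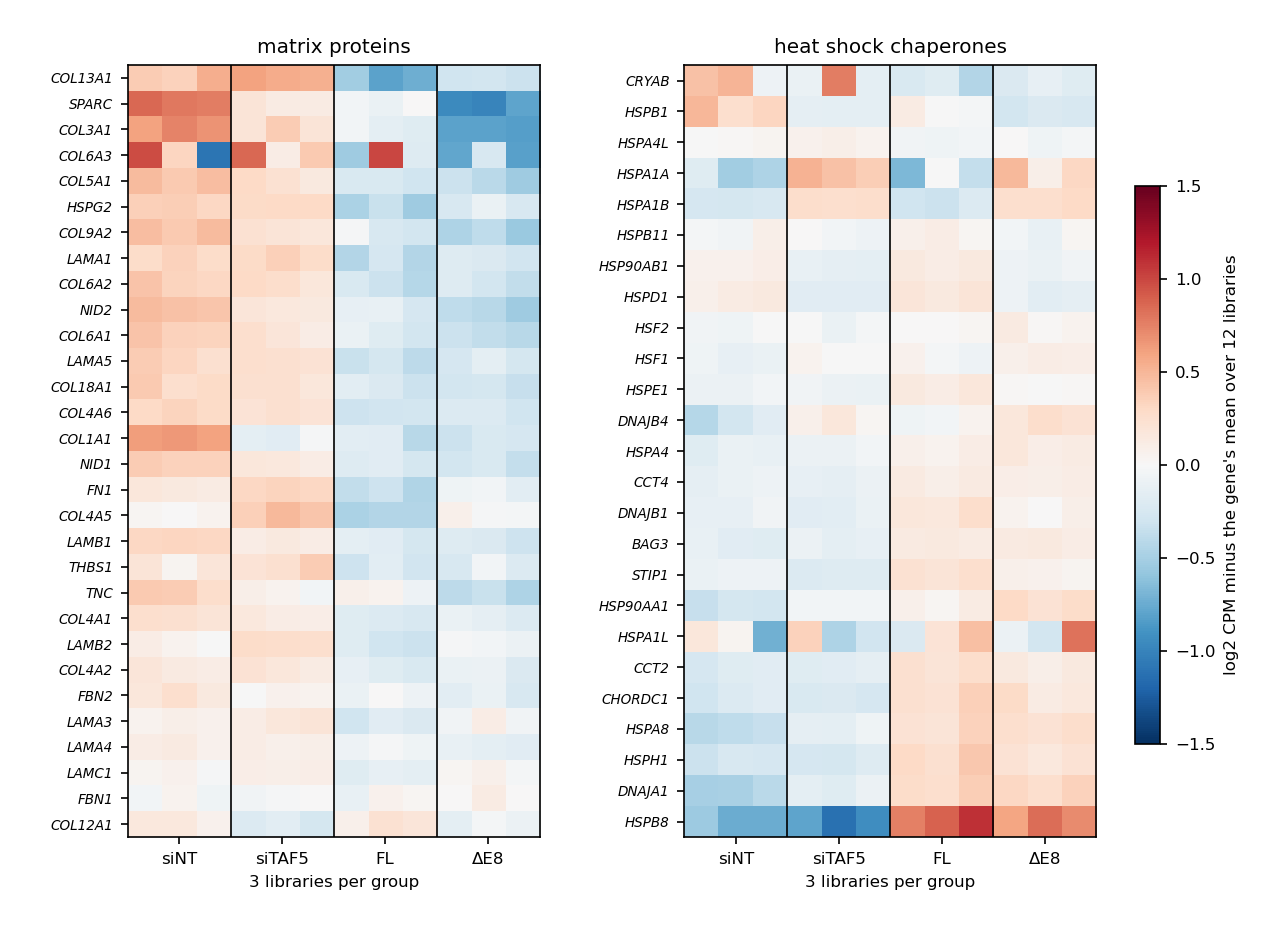
Log2 CPM minus the gene's mean over the 12 libraries (colour, from -1.5 in blue to 1.5 in red) for 30 matrix genes (left) and 25 heat shock genes (right), 3 libraries per group. Most matrix rows are red in the 6 libraries on the left and blue in the 6 on the right, while most of the lower rows of the heat shock panel run the other way.

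Transcripts of the mitochondrial genome and of its nuclear partners differed in direction. Of 13 mitochondrially encoded genes 10 fell and none rose on average (median -0.23), and 5 (38.5%) fell in all 4 pairings. MT-CO1, a subunit of cytochrome c oxidase, had 3418, 3198 and 3960 CPM with siNT, 3264, 3000 and 3084 with siTAF5, 2516, 2594 and 2569 with FL and 2443, 2684 and 2633 with ΔE8. The siNT libraries themselves spread widely, and the averaged difference was -0.37 ± 0.036 (adjusted p = 3.75e-08). MT-CO3 (-0.28 ± 0.033) and MT-CO2 (-0.21, named after its value was seen) are subunits of the same enzyme, and MT-ND4L (-0.31 ± 0.043) and MT-ND3 (-0.23 ± 0.028) of complex I. MT-CO3 overlaps MT-ATP6, and MT-ND4L overlaps MT-ND4, on the same strand, so reads of these genes may be shared. Leaving out 1 library moved the count of 5 to between 2, without siTAF5 replicate 1, and 8. The mitochondrial share of all counts was 0.906 to 0.933% with FL, 0.87 to 0.969% with ΔE8, 1.06 to 1.29% with siNT and 1.01 to 1.11% with siTAF5. That share is counted from the mitochondrial genes themselves, so it restates the result and is no separate measure. What moved it was not tested. Of 46 nuclear-encoded subunits of oxidative phosphorylation 30 rose and 5 fell on average (median 0.08), and 8 (17.4%) rose in all 4 pairings. Among them were NDUFA9 (0.25 ± 0.025), NDUFS3 (0.24 ± 0.023) and UQCRB (0.22 ± 0.019). NDUFA9 overlaps an unnamed gene on the same strand, and NDUFS3 overlaps PTPMT1, which also rose in all 4 pairings (0.14). Reads of NDUFA9 and NDUFS3 may therefore be shared. UQCRC2, a core subunit of complex III, was the 1 that fell in all 4 (-0.17 ± 0.016). The other 4 lower on average, between -0.12 and -0.06 and named after their values were seen, were COX6C, NDUFV1, NDUFA10 and SDHA.

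Among targets of signalling pathways the largest difference of any list member was that of ANKRD1, a muscle-type ankyrin repeat protein and a standard target of YAP and TEAD. Its levels were 0.626, 0.694 and 0.44 CPM with siNT, 0.532, 0.528 and 0.632 with siTAF5, 6.97, 6.12 and 9.07 with FL and 6.27, 5.74 and 7.34 with ΔE8. It was 11.9-fold higher on average (3.57 ± 0.12, adjusted p = 3.19e-14), did not differ between siTAF5 and siNT (-0.05, adjusted p = 0.898), and its average level was below the limit set for the 28 genes above. The rest of the 21 YAP and TEAD targets did not follow: 7 rose and 6 fell on average (median -0.03), and in all 4 pairings AMOTL2 (0.29 ± 0.036) and CCN2 (0.54, named after its value was seen) rose while TGFB2 (-0.66 ± 0.044) and NT5E (-0.83 ± 0.13) fell. NT5E was low, and without siNT replicate 1 or ΔE8 replicate 2 its adjusted p for ΔE8 against siNT was 0.111 or 0.0793.

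Immediate early genes, the first to answer growth factors and stress, were lower more often than higher. Of 28, 16 fell and 8 rose on average (median -0.15), and 6 (21.4%) fell and 3 (10.7%) rose in all 4 pairings. The share that rose was near the 9.6% of all genes tested. The summed level of the list was 1432 to 1506 CPM with siNT and 1717 to 1765 with siTAF5. It was 1357 to 1378 CPM with FL and 1636 to 1664 with ΔE8. Against siNT the sum was thus lower with FL but higher with ΔE8, so the sum had no shared direction. ARC was the strongest, at 22, 20.8 and 20.5 CPM with siNT, 19.4, 19.1 and 18.6 with siTAF5, 8.78, 8.99 and 8.54 with FL and 10.5, 10.4 and 10.1 with ΔE8, followed by IER3 (-0.64 ± 0.034) and BTG2 (-0.38 ± 0.020). MCL1, an inhibitor of apoptosis, rose in all 4 pairings (0.36 ± 0.019), but not without FL replicate 3 (adjusted p = 0.0553 for FL against siTAF5). FOSL1 (0.65) and DUSP6 (0.47), the remaining genes that rose, are named after their values were seen. DUSP6 and ETV5 are both known as readouts of ERK signalling, but more genes of this list fell than rose, and ERK signalling was not tested.

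Of 27 p53 targets 10 rose and 12 fell on average (median 0.00), and 3 did each in all 4 pairings. BTG2, BBC3, the apoptosis inducer PUMA (-0.61 ± 0.043), and GDF15, a stress-induced cytokine (-0.79 ± 0.052), fell, and AEN (0.28 ± 0.021), a nuclease, rose. GDF15 stood at 8.87, 9.27 and 8.47 CPM with siNT, 8.26, 7.35 and 7.12 with siTAF5, 4.66, 4.62 and 4.38 with FL and 4.78, 5.04 and 4.99 with ΔE8. MDM2 (0.23) and TRIAP1 (0.31), named after their values were seen, also rose, and without siTAF5 replicate 2 only AEN of the 3 was still higher in all 4 pairings.

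Of 22 genes of cholesterol synthesis and uptake 11 fell and 6 rose on average (median -0.05), and 6 (27.3%) fell in all 4 pairings. INSIG1, the sterol sensor that holds back SREBP, was at 303, 303 and 299 CPM with siNT, 297, 298 and 286 with siTAF5, 208, 201 and 191 with FL and 247, 229.6 and 219.9 with ΔE8. It fell further with FL than with ΔE8 (-0.22 ± 0.035, adjusted p = 6.37e-05). MSMO1, a sterol-methyl oxidase, also fell (-0.36 ± 0.024), while ACAT2, a thiolase at the start of the pathway (0.35 ± 0.020), rose in all 4 pairings. ACAT2 overlaps TCP1 on the opposite strand, which also rose in all 4 pairings (0.2), so its reads may be shared. Of 27 interferon-stimulated genes 4 rose and 11 fell on average (median -0.14), and 2 and 3 did so in all 4 pairings. IFITM1 fell by 0.85 (SE 0.067) and TAP1 by 0.21 (SE 0.024), and IFI6 fell too (-0.34 ± 0.038), except without ΔE8 replicate 2 (adjusted p = 0.0607 for ΔE8 against siNT). IFIT5 (0.27 ± 0.026) and ISG20 (0.84, named after its value was seen) rose in all 4 pairings, but leaving out any 1 library cost at least 1 of these 2 calls, and without siNT replicate 2 or with upper-quartile factors neither remained. IFIT3 (0.55) and ISG15 (0.25), named likewise, passed the test on average but not in all 4 pairings.

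Genes of neurons and of surface adhesion, several of which HEK293 cells transcribe, were described next. Of 26 neuronal cytoskeleton and vesicle genes 12 rose and 10 fell on average (median 0.02, or -0.01 with upper-quartile factors), 3 each in all 4 pairings. SYP, synaptophysin of synaptic vesicles, was at 12.1, 11.7 and 11.6 CPM with siNT, 10.9, 10.2 and 10.1 with siTAF5, 20.4, 19.3 and 19.2 with FL and 15.1, 16.6 and 15.4 with ΔE8. It rose with both transgenes, more with FL (0.32 ± 0.050 for FL minus ΔE8, adjusted p = 3.29e-05). INA, an intermediate filament protein, rose as well (0.54 ± 0.025), but its relative NEFL fell (-0.37 ± 0.026). SYN1 (1.33) rose and MAPT (-0.42) fell, both named after their values were seen.

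Of 20 cadherins and protocadherins 3 rose and 9 fell on average (median -0.05). In all 4 pairings CDH3, P-cadherin, fell (-1.06 ± 0.063), while PCDH7 (0.36 ± 0.020), CELSR3 (0.26 ± 0.039) and FAT1 (0.22 ± 0.036) rose. FAT1 lost its call without FL replicate 2 or 3 or siTAF5 replicate 1 or 2, with an adjusted p of 0.0535 to 0.258 for FL against siTAF5. Of 30 genes of axonemal dyneins and motile cilia, the list that holds DNAH17, 10 rose and 6 fell on average (median 0.03). DNAH17 was the only member to rise in all 4 pairings, while DNAH11, another outer-arm heavy chain, fell (-0.61 ± 0.048), as did RFX2, a regulator of ciliary genes (-0.44 ± 0.048), and DNAH5 (-1.04 ± 0.19). DNAH11 overlaps CDCA7L on the opposite strand, which had 94.5 CPM with siNT and also fell in all 4 pairings (-0.21). Reads of DNAH11 may therefore be shared. DNAH5 lay under 1 CPM in every library, and without siTAF5 replicate 2 or ΔE8 replicate 2 or 3 its adjusted p for ΔE8 against siTAF5 was 0.0815, 0.052 or 0.0929.

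Cell identity markers were read last. Of the 11 markers of embryonic kidney lines 3 (VIM, KRT8 and KRT18) rose and 6 fell on average (median -0.07). LHX1, a transcription factor of the early kidney, fell in all 4 pairings (-0.60 ± 0.063), as did NEFL, and KRT18 rose (0.18 ± 0.019). KRT18 lost this without ΔE8 replicate 1 or 3 (adjusted p = 0.126 or 0.0601 for ΔE8 against siNT). Of 11 epithelial keratin and junction genes 8 were tested, with EPCAM (0.05), KRT8 (0.15) and KRT18 higher and CDH1 (-0.85), CLDN4 (-0.63) and CLDN7 lower on average (median -0.06), named after their values were seen, and CLDN7 fell in all 4 pairings (-0.66 ± 0.10) but not without siTAF5 replicate 2 (adjusted p = 0.0552 for ΔE8 against siTAF5) or FL replicate 3 (0.0501 for FL against siTAF5). Of 10 differentiated nephron markers 3 were tested and 1, LRP2 (-0.19, named after its value was seen), was lower on average. Of 9 blood cell markers 3 were tested, CD14 (adjusted p = 0.827), HBA1 (0.615) and CD34 (0.189), and the median of their differences was 0.07.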

How the data were processed

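The deposited table held expected counts per gene, not normalized, as the authors made it: 46.5% of entries were not whole. Per the submitters' processing notes, cutadapt 1.18, STAR 2.7.0f, Partek 10.0.23.0531, DESeq2 and hg38 were used, without roles or order. Which annotation was counted, and whether by strand, is not stated. Values were rounded, which moved no library total by more than 91.3 counts. edgeR's filterByExpr (minimum count 10) left 19424 of 32010 genes, and 8010 rows without a gene name stayed in by ID. R 4.3.3 with edgeR 4.0.16 and limma 3.58.1 fitted 1 quasi-likelihood model to the 12 libraries, scaled by trimmed mean of M values, with a mean per group and no replicate block. All tests were two-sided, with a threshold of 0.05 on the p adjusted by Benjamini-Hochberg and no minimum fold. The SE is the log2 difference divided by the root of F. The fit was also run on simulated counts. These were drawn from the model's own estimated spread, with equal groups apart from some altered genes. Such counts check the code and not how well the model describes these data. Chi-square per degree of freedom was 2.6 to 5.14 between replicates of a group, more than counting error alone. It does not tell separate cultures from repeated preparations of 1 culture.

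The members and the 29 gene lists (735 genes, 730 found) were chosen with earlier results of these data known. Genes named were TAF5, the other TFIID subunits, the 14 that rose and 14 that fell with the largest smallest difference over the pairings (no library overlap, average log2 CPM of 2 or more), and per list up to 4 members by smallest adjusted p, with exceptions said where they occur. Counts over lists include 3 genes whose own values are not reported here. Alternatives were DESeq2 size factors, the DESeq2 test (version 1.42), library totals, upper-quartile factors, limma voom, a minimum count of 50, no filter, a replicate block, and leaving out each library. Positions are those of the table, with 1 base taken from the stop.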

Additional observations from a re-analysis of the deposited data

Results flagged for a closer look

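Of the 127 named genes, 51 had a response that differed between the transgenes: the difference between FL and ΔE8, which is also the difference between their responses against a common control, had an adjusted p under 0.05 in edgeR's quasi-likelihood test, from 1.74e-10 to 0.0383. Values are FL minus ΔE8 on the log2 scale, 23 negative and 28 positive. Over all genes tested 37% met the same limit, a similar share, so such a difference does not set the named genes apart. TAF5 and its partners in TFIID were TAF12 (-0.70), TAF4 (-0.33), TAF6 (-0.28), TAF4B (-0.19), TAF3 (-0.17), TAF9B (-0.15), TAF11 (-0.13), TAF1 (-0.12), TAF8 (0.27) and TAF5 (0.26).

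Outside TFIID, the rise was larger with FL than with ΔE8 for KRT18 (0.10), MCM7 (0.11), HYOU1 (0.11), MCM10 (0.12), HSPH1 (0.12), INA (0.12), SF3A1 (0.14), RRP12 (0.15), WARS1 (0.17), ETV5 (0.17), HNRNPM (0.18), SNHG20 (0.22), PCDH7 (0.23), IFIT5 (0.23), POLA1 (0.25), RRS1 (0.29), LINC01963 (0.31), DNAH17 (0.32) and SYP (0.32). It was larger with ΔE8 for MCL1 (-0.22), SNHG15 (-0.14), NOP2 (-0.14), CDC6 (-0.08), ACAT2 (-0.08) and TPX2 (-0.06).

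Among genes that fell, the fall was larger with FL for PCK1 (-0.42), VSTM2B (-0.34), IFI6 (-0.30), HSPG2 (-0.26), RFX2 (-0.26), ARC (-0.24), INSIG1 (-0.22), IER3 (-0.20) and UQCRC2 (-0.09). It was larger with ΔE8 for RPL3 (0.08), STARD4 (0.14), NID2 (0.28), CDH3 (0.42), COL21A1 (0.51) and COL3A1 (0.71). COL3A1 and COL21A1 are matrix genes, and each was lower in all 3 libraries with ΔE8 than in any with FL. Groups of 3 were not examined for single libraries that stand apart.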

How the results depend on the processing

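No count of genes in the averaged difference, the single pairings or all 4 pairings moved by 1.5 times or more under any alternative. Genes that rose in all 4 pairings numbered 1691 to 1810 when 1 library was left out and 1507 (upper-quartile factors) to 1926 (replicate block) otherwise, and genes that fell 1483 to 1690 and 1494 (DESeq2 test) to 2091 (upper-quartile factors). Of the 3596 genes, 3099 to 3572 kept their call and sign under each alternative. The median over all genes moved by at most 0.03 (log2).

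Replicate numbers were not taken to pair the samples, since deviations of same-numbered libraries correlated at -0.188 to 0.297, over 0.1 in only 8 of 18 pairs. As a hint from the data and not from the design, 9 of 12 libraries correlated best with their own number. With the number as a replicate block, 1926 genes rose and 1792 fell in all 4 pairings.

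The call in all 4 pairings of a named gene was lost in 49 of 2539 combinations of gene and alternative. That total includes the other TFIID subunits, of which only 4 of 16 had the call, so the rest had none to lose. Beside those given with the results, STARD4, IFIT5, IFI6, MT-ND3 and MT-ND4L lost the call when 1 library was left out (adjusted p of 0.0558 to 0.182 in the pairing concerned), and other settings cost calls too. Library totals lost SNHG15, FAT1, MCL1, TAF13 and TAF9 (adjusted p of 0.0652 to 0.185), upper-quartile factors FAT1, IFIT5 and KRT18 (0.0637 to 0.243), the DESeq2 test COL3A1, DNAH5, FAT1, NT5E and RPL13 (0.0507 to 0.0944), and no low-count filter IFIT5 and KRT18 (0.134 and 0.137). List counts of 1 to 5 genes in all 4 pairings moved by at most 3 genes. Genes at low levels and lists of few measurable genes, such as blood and nephron markers, are limited by depth.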

Other observations

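Gene families were read by symbol after the values had been seen, so these counts are descriptions. Over all genes tested 29.3% were higher and 29.5% lower on average, and 9.6% and 8.92% in all 4 pairings. Of 37 genes of the 20S and 26S proteasome (PSMA, PSMB, PSMC and PSMD) 29 rose in all 4 pairings and none fell, with a median of 0.24, and the 2 lower on average, PSMB8 (-0.98) and PSMB9 (-0.42), are subunits of the immunoproteasome. All 9 genes of the CCT chaperonin were higher on average, 6 of them in all 4 pairings. Of 11 UTP genes of the small-subunit processome 9 rose in all 4 pairings, and of 9 MCM genes 6 did. Of 485 zinc finger genes with ZNF symbols 232 were higher and 74 lower on average, and 57 and 23 in all 4 pairings.

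Secreted and surface families were lower more often than higher. Of 36 collagen genes 19 fell in all 4 pairings and 1 rose, with a median of -0.54. Of 19 semaphorins 17 were lower and none higher on average, 8 of them in all 4 pairings, and of 16 WNT ligands 14 were lower and none higher, 6 in all 4. Of 14 alpha integrins 10 were lower and 2 higher on average, with 5 and 0 in all 4 pairings. Of 21 ADAMTS and ADAMTSL genes 18 were lower and 1 higher, with 9 and 1 in all 4, and of 12 synaptotagmins 10 and 2, with 6 and 1 in all 4.

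Of the 73 genes at least 2-fold different in every pairing, 63 had too low an average level to be named under the rule, 37 higher and 26 lower. STMN4, a neuronal stathmin, went from a mean of 0.97 ± 0.14 CPM (SD, n = 3) with siNT and 0.384 ± 0.0322 with siTAF5 to 6.1 ± 0.283 with FL and 5.26 ± 0.253 with ΔE8. ACTBL2, an actin-like gene, was at 1.37, 1.27, 5.5 and 5.66 CPM in the same order, and GCNA at 1.52, 1.5, 3.6 and 3.58. XRCC6P1, a processed pseudogene of XRCC6 whose reads may be shared, rose 8.1-fold on average. Lower were COL23A1 (4.92, 3.52, 1.6 and 1.52 CPM), the cell cycle inhibitor CDKN1C (3.6, 3.76, 1.5 and 1.74 CPM), and NOTUM, a WNT deacylase (2.76, 2.38, 1.05 and 1.07 CPM). Their adjusted p in the averaged difference of edgeR ran from 1.92e-15 to 9.65e-10.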
